A study of Cavia porcellus with 13 samples.

Results

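The genes described here mark the endothelium, the cell layer that lines blood vessels, and were followed in bulk RNA of guinea pig (Cavia porcellus) skin after tick attachment. They are the 10 rows of the deposited expression table, of 26855 rows in all, whose symbol is CLDN5, PECAM1, CDH5, VWF, KDR, TEK, TIE1, ENG, SELE or VCAM1. All 10 were in the table. All 10 also passed the filter for testing, at least 1 TPM in at least 2 libraries, although SELE reached 1 TPM in only 6 of the 13 libraries. TPM is a gene's share of a library's transcripts, after division by transcript length, on a scale that sums to the same total in each library. The members' identifiers are CLDN5 ENSCPOG00000002274, PECAM1 ENSCPOG00000012306, CDH5 ENSCPOG00000037748, VWF ENSCPOG00000000912, KDR ENSCPOG00000010001, TEK ENSCPOG00000009907, TIE1 ENSCPOG00000006080, ENG ENSCPOG00000000436, SELE ENSCPOG00000012409 and VCAM1 ENSCPOG00000006727.

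The 13 libraries carry day 4 after attachment in their labels. In the experiment titled CK1, 3 libraries came from bitten skin labelled saliva immune, 3 from bitten skin at a first exposure and 2 from unbitten naive skin. In the experiment titled EF19-5, 2 libraries came from skin labelled with 3 bites, 2 from skin labelled with 2 bites and 1 from unbitten naive skin. The 2 titles and the way of saliva immunization are not explained in the labels. Strain, sex, age and tick species are not given there either. Nor do the labels say that each library came from its own animal, so the p-values below measure the spread between these libraries, which may be technical in part. Naive replicate 3 is the only naive library of EF19-5, so the fit there borrows its spread from the remaining groups.

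Endothelial cells hold to each other through adherens junctions, built on the cadherin CDH5, and tight junctions, in which claudins such as CLDN5 seal the gap between cells. Growth and quiescence of the vessel are set by receptor kinases: KDR answers to vascular endothelial growth factor, and TEK, with its relative TIE1, to the angiopoietins. In inflamed skin, small venules display adhesion molecules such as SELE and VCAM1, on which leukocytes roll and arrest before they leave the blood. Skin at a tick bite is a site of both bleeding and inflammation, so these genes report on barrier, growth, clotting and leukocyte entry in the same tissue.

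In bitten against naive skin, the fitted difference was above 0 for 8 of the 10 genes and just below 0 for TEK and VCAM1. The differences of VWF, TIE1, ENG, CDH5, PECAM1 and CLDN5 lay between 0.56 and 0.96 on the log2(TPM + 1) scale. None of the 10 passed the test after adjustment over all genes. The angiopoietin receptor TEK had a lower ratio to its relative TIE1 in each bitten library than in each naive library. On the log2(TPM + 1) scale, 3.05% of all genes tested likewise had a ratio to TIE1 that was lower without overlap. This ratio was looked at after the TEK values were seen and carries no test. Values for each gene follow by role, first the junctions, then the receptors, then VWF and the leukocyte adhesion molecules. Levels were ordered, by mean TPM over all libraries, from PECAM1 with 36.3 TPM, above 70.7% of the genes tested, through ENG with 28.5, CLDN5 with 13.8 and VWF with 12.6, down to SELE with 1.22 TPM, above 8.29% of the genes tested.

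CLDN5, the claudin of endothelial tight junctions, had 21.0, 22.2 and 17.8 TPM in saliva immune skin, 16.9, 16.1 and 14.6 TPM in first exposure skin and 16.7 and 12.4 TPM in naive skin of CK1. In EF19-5 it had 11.6 and 5.89 TPM in 3 bites skin, 12.6 and 8.01 TPM in 2 bites skin and 3.93 TPM in naive skin. Each saliva immune library was above each naive library of CK1, whereas first exposure skin overlapped naive skin. All 4 bitten libraries of EF19-5 were above its naive library. The group means in CK1 ran from saliva immune (20.3 ± 2.29 TPM, SD, n = 3) through first exposure (15.9 ± 1.17, n = 3) to naive (14.5 ± 3.03, n = 2), and the values of first exposure and naive skin overlapped. CLDN5 also differed in level between the experiments, at 12.4 to 22.2 TPM in CK1 and 3.93 to 12.6 TPM in EF19-5.

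CDH5, the cadherin of endothelial adherens junctions (VE-cadherin), had 9.46, 11.0 and 13.2 TPM in saliva immune, 12.8, 8.18 and 7.80 TPM in first exposure and 8.47 and 4.55 TPM in naive skin of CK1. In EF19-5 the values were 13.2 and 3.80 TPM in 3 bites, 6.14 and 5.13 TPM in 2 bites and 3.52 TPM in naive skin. The saliva immune libraries of CDH5 were all above the naive libraries of CK1, and so were the 4 bitten libraries of EF19-5 above its naive library, the lowest of them by a small margin.

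PECAM1 (CD31) is an adhesion molecule of the contacts between endothelial cells and is also carried by leukocytes and platelets. It had 40.1, 44.4 and 48.6 TPM in saliva immune, 52.2, 32.2 and 33.3 TPM in first exposure and 32.1 and 23.2 TPM in naive skin of CK1. In EF19-5 it had 62.1 and 17.2 TPM in 3 bites, 39.9 and 27.1 TPM in 2 bites and 19.2 TPM in naive skin. PECAM1 was the only member whose 6 bitten libraries in CK1 all lay above both naive libraries, although first exposure replicate 2 and naive replicate 1 were almost equal. In EF19-5 the bitten libraries lay on both sides of the naive library.

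**Figure D1:**
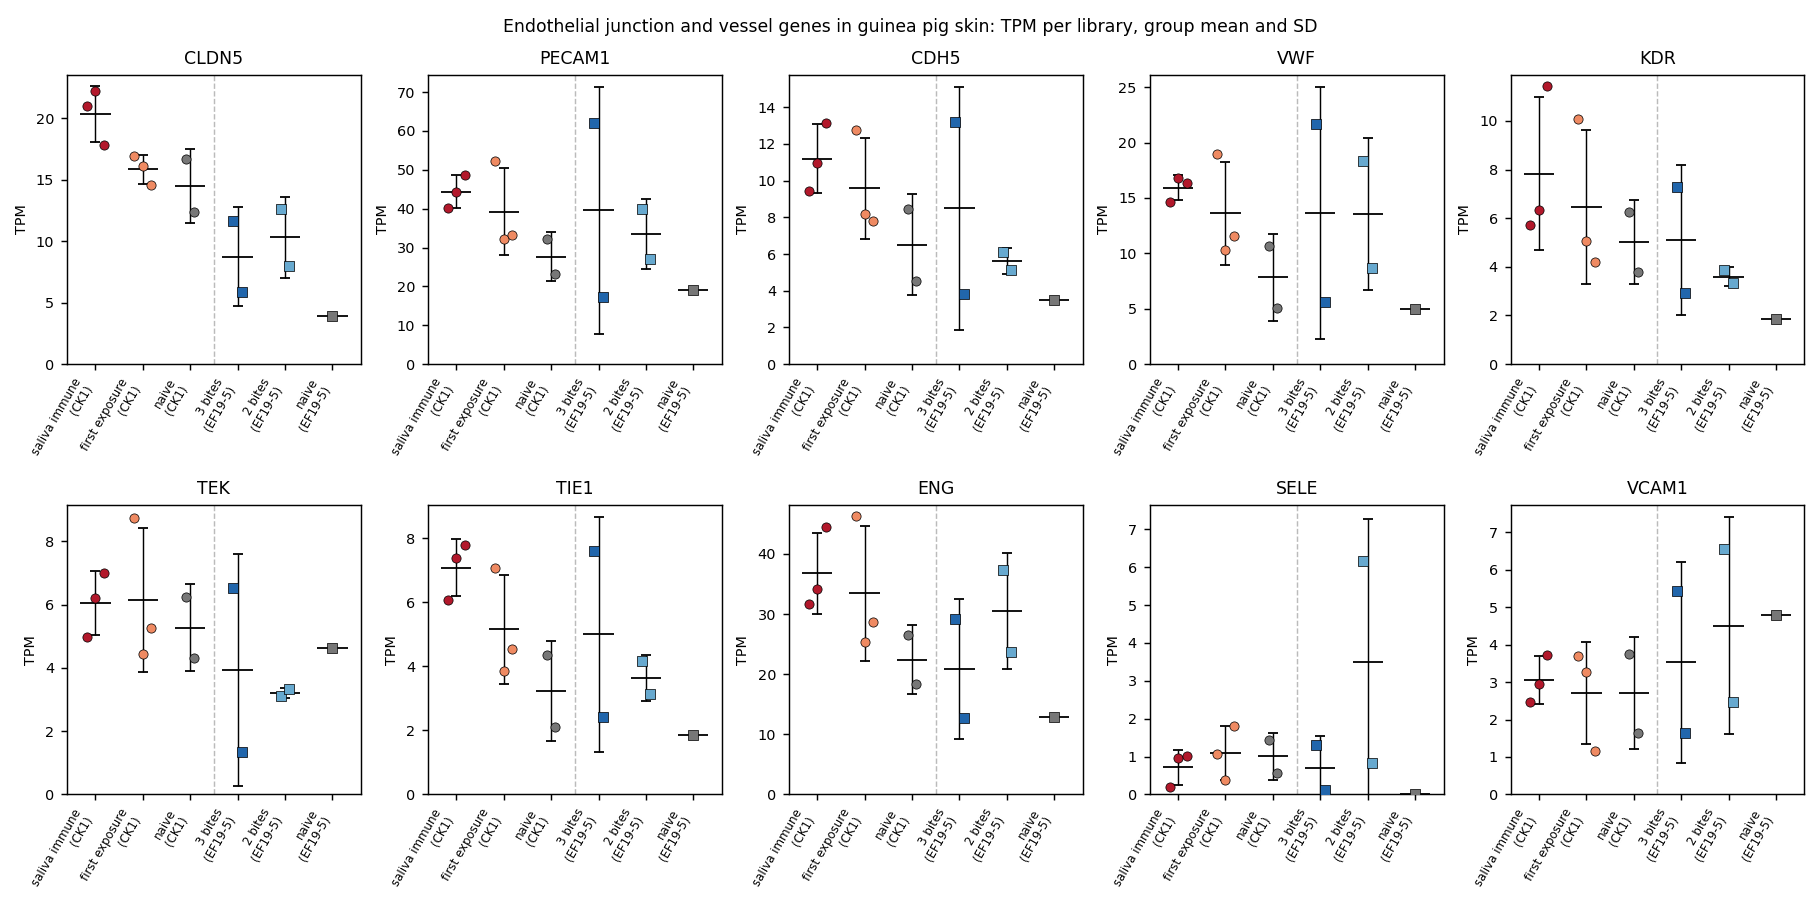
TPM of the 10 genes in each library (points), with the group mean (horizontal line) and SD (vertical bar, cut at 0), CK1 left and EF19-5 right of the dashed line; the vertical axes start at 0 and differ between genes. For most members the saliva immune points lie above the naive points of CK1, while the 2 libraries of 3 bites skin are far apart, as for PECAM1 with 62.1 and 17.2 TPM.

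Among the receptors, KDR (VEGF receptor 2), the main signalling receptor for VEGF on endothelium, had 5.73, 6.36 and 11.4 TPM in saliva immune, 10.1, 5.08 and 4.21 TPM in first exposure and 6.25 and 3.80 TPM in naive skin of CK1. The corresponding values in EF19-5 were 7.30 and 2.94 TPM in 3 bites, 3.88 and 3.32 TPM in 2 bites and 1.86 TPM in naive skin. Its groups overlapped in CK1, while all 4 bitten libraries of EF19-5 lay above the naive library.

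ENG (endoglin), an accessory receptor for BMP and TGF-beta ligands, had 31.7, 34.2 and 44.4 TPM in saliva immune, 46.3, 25.4 and 28.7 TPM in first exposure and 26.5 and 18.4 TPM in naive skin of CK1. It had 29.1 and 12.6 TPM in 3 bites, 37.3 and 23.6 TPM in 2 bites and 12.9 TPM in naive skin of EF19-5. Only 3 bites replicate 2 among the EF19-5 bitten libraries was below the naive library.

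TIE1, a receptor kinase without a direct ligand of its own that pairs with TEK, had 6.07, 7.38 and 7.80 TPM in saliva immune, 7.08, 3.86 and 4.53 TPM in first exposure and 4.34 and 2.12 TPM in naive skin of CK1. In EF19-5, TIE1 had 7.60 and 2.41 TPM in 3 bites, 4.15 and 3.13 TPM in 2 bites and 1.86 TPM in naive skin. Saliva immune skin lay wholly above naive skin in CK1, and the bitten libraries wholly above the naive library in EF19-5.

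TEK (TIE2), the angiopoietin receptor, had 4.98, 6.21 and 6.99 TPM in saliva immune, 8.73, 4.43 and 5.27 TPM in first exposure and 6.23 and 4.30 TPM in naive skin of CK1. It had 6.53 and 1.33 TPM in 3 bites, 3.10 and 3.33 TPM in 2 bites and 4.62 TPM in naive skin of EF19-5. Here the bitten and naive libraries overlapped in both experiments, and 3 of the 4 bitten libraries of EF19-5 were below the naive library.

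VWF, which endothelium stores and releases to tether platelets at a wound, had 14.7, 16.8 and 16.3 TPM in saliva immune, 18.9, 10.3 and 11.5 TPM in first exposure and 10.6 and 5.06 TPM in naive skin of CK1. In EF19-5, VWF had 21.7 and 5.59 TPM in 3 bites, 18.4 and 8.71 TPM in 2 bites and 4.95 TPM in naive skin. Over all libraries VWF averaged 14.3 ± 5.09 TPM in bitten skin (SD, n = 10) and 6.88 ± 3.24 TPM in naive skin (SD, n = 3).

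SELE (E-selectin), which endothelium makes when cytokines act on it and on which leukocytes roll, was near the lower end of the measurable range. It had 0.191, 0.958 and 1.02 TPM in saliva immune, 1.07, 0.391 and 1.82 TPM in first exposure and 1.45 and 0.565 TPM in naive skin of CK1. It had 1.297 and 0.120 TPM in 3 bites skin and 6.16 and 0.823 TPM in 2 bites skin of EF19-5, and was listed at 0 in the naive library. A single library, 2 bites replicate 1, stood above the other 12. No fold over EF19-5 naive skin is given, because the value there was 0.

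VCAM1, the ligand of alpha 4 integrins on leukocytes, had 2.46, 2.95 and 3.73 TPM in saliva immune, 3.69, 3.28 and 1.15 TPM in first exposure and 3.76 and 1.64 TPM in naive skin of CK1. The EF19-5 values were 5.42 and 1.63 TPM in 3 bites, 6.56 and 2.46 TPM in 2 bites and 4.79 TPM in naive skin. VCAM1 overlapped between bitten and naive skin in both experiments.

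To ask what a bite of any history does, the 10 bitten libraries were set against the 3 naive libraries with the experiment as a term. The limma fit called 0 of the 10 members at an adjusted p under 0.05, where it called 0.0401% of the 14979 genes tested. At an unadjusted p under 0.05, 6 members were higher and 0 lower, against 11.2% of all genes higher and 4.58% lower. VWF was higher by 0.96 on the log2 scale (SE 0.330, unadjusted p = 0.0115, limma adjusted p = 0.207). TIE1 followed with 0.78 (SE 0.271, limma adjusted p = 0.209), ENG with 0.69 (SE 0.263, adjusted p = 0.239) and CDH5 with 0.66 (SE 0.277, adjusted p = 0.282). PECAM1 had a difference of 0.63 (SE 0.282, limma adjusted p = 0.301) and CLDN5 of 0.56 (SE 0.219, adjusted p = 0.250). KDR was at 0.55 (95% interval -0.07 to 1.17) and SELE at 0.38 (-0.61 to 1.37). The 2 remaining members were near 0, TEK at -0.04 (95% interval -0.65 to 0.58) and VCAM1 at -0.07 (-0.77 to 0.64), intervals that also allow differences of the size seen in other members. The median of the 10 members was 0.60, beside 0.10 over all genes tested, and 8 of 10 were above 0, beside 64.6% of all genes.

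This contrast leans on the naive libraries. Naive replicate 2 had the lowest level in CK1 of 8 of the 10 members, all but SELE and VCAM1. Without it the limma fit gave 0 members an unadjusted p under 0.05, and VWF was at 0.75 (unadjusted p = 0.0735). Without naive replicate 3 only TIE1 did, at 0.77 (unadjusted p = 0.0471), and CLDN5 was at 0.30. With median-of-ratios scaling of the TPM values, which took the median of all genes to -0.01, 2 members had an unadjusted p under 0.05.

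**Figure D2:**
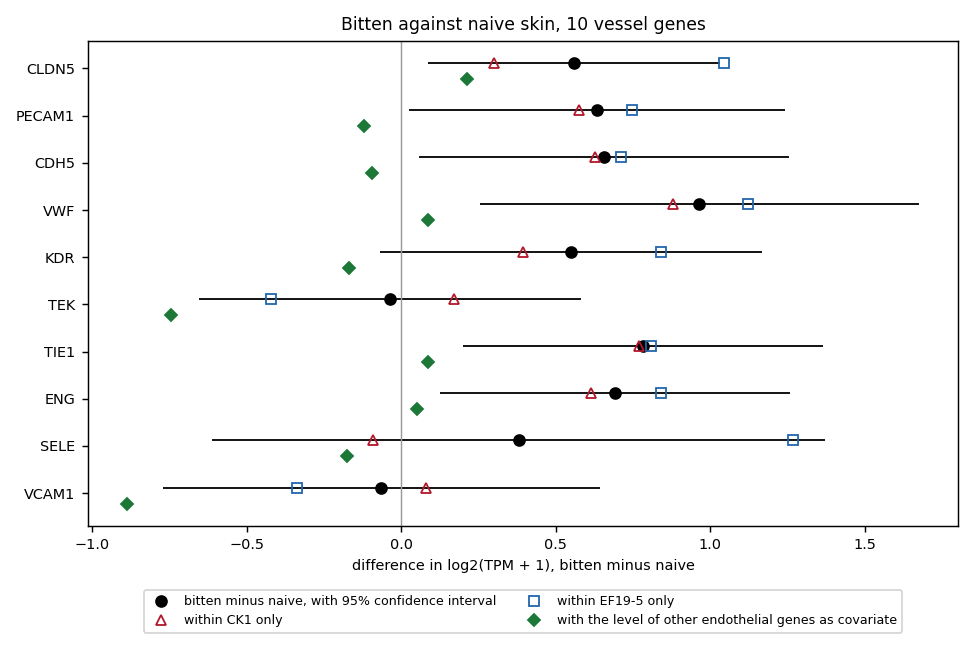
Differences in log2(TPM + 1), bitten minus naive, for the 10 genes (vertical axis), with the limma estimate and its 95% confidence interval (black), the difference within each experiment (open symbols) and the estimate with the mean level of 16 other endothelial genes as covariate (green). Most of those 16 genes were themselves higher in bitten skin. The intervals of VWF, TIE1, ENG, CDH5, PECAM1 and CLDN5 lie above 0, TEK and VCAM1 stand near 0 and, with the covariate, at -0.75 and -0.89; the EF19-5 point of SELE rests on a naive library listed at 0.

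Within each experiment, the libraries of 1 member, PECAM1, did not overlap between bitten and naive skin in CK1, where 10.6% of all genes were higher without overlap. In EF19-5 the 6 members CLDN5, CDH5, VWF, KDR, TIE1 and SELE were higher without overlap, against 16.9% of all genes. The bite difference itself was compared between the experiments as EF19-5 minus CK1. None of the members was called (limma, adjusted p = 0.999 for each), as was 0% of all genes, and 0 members had an unadjusted p under 0.05, against 2.81% of all genes. The latter count of members was 1 with a pseudocount of 0.1 or with the endothelial covariate described below, and it moved in some fits with a library left out. For CLDN5 the bitten minus naive difference was 1.04 in EF19-5 and 0.30 in CK1, and the gap of 0.74 had a 95% interval from -0.19 to 1.67.

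Saliva immune skin set against naive skin of CK1 asks for the bite response in skin so labelled. The limma fit called 0 of 10 members, against 0.00668% of all genes, and TIE1 alone had an unadjusted p under 0.05 (0.98, SE 0.393, unadjusted p = 0.0319, limma adjusted p = 0.387), against 11.6% of all genes. By limma this count of 1 was 6 on the libraries of CK1 alone, 5 without the experiment term, 5 without 3 bites replicate 1 or 2, 2 without naive replicate 1 and 0 without naive replicate 2 or saliva immune replicate 2 or 3. It was also 0 with median-of-ratios scaling or the endothelial covariate described below. VWF was at 1.01 (SE 0.510), CDH5 at 0.74 (SE 0.420) and CLDN5 at 0.47 (SE 0.275). CLDN5, PECAM1, CDH5, VWF, TIE1 and ENG had no overlap between the 3 saliva immune and 2 naive libraries, which held for 18.5% of all genes in the same direction.

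First exposure skin shares these 2 naive libraries, so its differences are not independent of those of saliva immune skin. Here too the limma fit called 0 of 10, against 0.0334% of all genes, with 0 members at an unadjusted p under 0.05, against 13.6% of all genes. That last count of members was 1 without the experiment term or with the endothelial covariate. VWF was at 0.75 (SE 0.510), CDH5 at 0.52 (SE 0.420) and CLDN5 at 0.13 (95% interval -0.48 to 0.75). Only PECAM1 had no overlap with naive skin, where 21.9% of all genes were higher without overlap.

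Set directly against first exposure skin, saliva immune skin differed in 0 of 10 members by limma, against 0% of all genes, and 0 had an unadjusted p under 0.05, against 2.34% of all genes. TIE1 was at 0.42 (95% interval -0.36 to 1.205) and CLDN5 at 0.34 (-0.21 to 0.88). Every CLDN5 value in saliva immune skin was nevertheless above every value in first exposure skin, 17.8 TPM or more in saliva immune and 16.9 TPM or less in first exposure skin, which 5.41% of all genes shared in that direction.

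The 2 groups with repeated bites were set against a single naive library. In 3 bites skin limma called 0 of 10 members, against 0.00668% of all genes, and CLDN5 alone had an unadjusted p under 0.05 (0.92, SE 0.370, unadjusted p = 0.0321, limma adjusted p = 1), against 2.34% of all genes. That count of 1 was 7 without 3 bites replicate 2, 2 with the endothelial covariate and 0 with a pseudocount of 5, with median-of-ratios scaling, without the experiment term or on EF19-5 alone. In 2 bites skin limma again called 0 of 10, against 0.0134% of all genes, and CLDN5 (1.17, SE 0.370, unadjusted p = 0.0101, limma adjusted p = 0.743), ENG (1.14, SE 0.499, unadjusted p = 0.0450, adjusted p = 0.832) and SELE (unadjusted p = 0.0366, adjusted p = 0.812) had an unadjusted p under 0.05, against 5.87% of all genes. This count of 3 was 0 without the experiment term or on EF19-5 alone, and 1 with a pseudocount of 5 or the skeletal muscle covariate. It was 2 without the filter, without first exposure replicate 3 or without saliva immune replicate 1 or 2. The count also moved when 2 bites replicate 1 or either 3 bites library was left out. Over the fits without 1 library CLDN5 lay between 0.87 and 1.47, ENG between 0.82 and 1.46 and SELE between 0.87 and 2.84. Without the experiment term, so that all 3 naive libraries served, CLDN5 was at -0.17 in 3 bites and 0.07 in 2 bites skin. Between 3 bites and 2 bites skin limma called 0 of 10, against 0% of all genes, with 0 at an unadjusted p under 0.05, against 10.8% of all genes. Without 3 bites replicate 1 there were 4 at that level, all lower in 3 bites skin, without 3 bites replicate 2 there were 2, both higher, and without 2 bites replicate 2 or with the endothelial covariate there was 1. ENG was at -0.60 there (95% interval -1.51 to 0.31) and CLDN5 at -0.25 (-0.92 to 0.42).

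The 2 libraries of 3 bites skin disagreed on every member. Replicate 1 exceeded replicate 2 by 1.97 times for CLDN5, 3.62 times for PECAM1, 3.88 times for VWF, 4.91 times for TEK and 10.8 times for SELE, while the median ratio over all genes was 0.943. In 3 bites skin the ratio of summed levels ran from 0.606 for platelet to 2.77 for fibroblast markers over the other gene lists. It was 2.19 for lymphatic endothelial, 2.13 for adipocyte and 1.92 for skeletal muscle genes. Summed over the 10 members the ratio was 3.10 in 3 bites and 1.61 in 2 bites skin. The difference from naive skin therefore turned on which library was kept. With replicate 1 alone PECAM1 was at 1.64, CDH5 at 1.65 and VWF at 1.93, and with replicate 2 alone they were at -0.15, 0.09 and 0.15. TEK was at 0.42 with replicate 1 alone and at -1.27 with replicate 2 alone. CLDN5 was above naive skin in both cases, at 1.35 and 0.48.

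**Figure D3:**
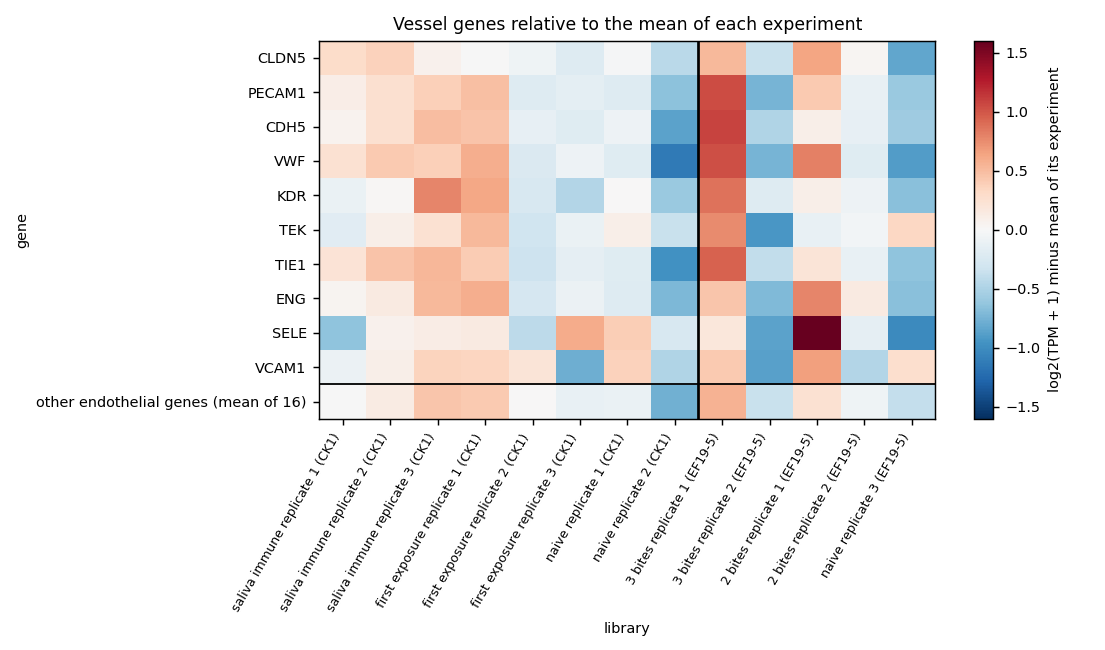
log2(TPM + 1) of each gene (vertical axis) in each library (horizontal axis), less the mean of its experiment; red is above and blue below that mean, and the lowest line is the mean of 16 other endothelial genes. Columns tend to share a colour from top to bottom, as in 3 bites replicate 1 (red) and naive replicate 2 (blue), with SELE, VCAM1 and TEK departing from the others in several libraries.

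Most members varied together from library to library. After subtraction of each experiment's mean, Pearson's r over the 13 libraries was 0.972 between CDH5 and TIE1, 0.965 between PECAM1 and VWF and 0.959 between PECAM1 and CDH5. CLDN5 tracked VWF (r = 0.884) more closely than KDR (r = 0.647) or TEK (r = 0.267). TEK had r = 0.603 with TIE1, and SELE and CLDN5 had r = 0.638 over all libraries but -0.20 within CK1. These coefficients describe libraries that share tissue composition and scaling, and bulk RNA cannot tell fewer endothelial cells from less RNA per cell.

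By a rule based on r alone, the genes most like the mean of the members, among 9763 with a symbol and at least 5 TPM on average, were B3GLCT (r = 0.962), NRP1 (0.958), PROS1 (0.956), CYP4V2 (0.948), CHRDL1 (0.942), ADGRL4 (0.933), SVEP1 (0.932) and CD93 (0.931). NRP1 is a co-receptor of KDR for VEGF, and ADGRL4 and CD93 are endothelial surface proteins. For CLDN5 they were MAN1A1 (r = 0.888), BEST2 (0.888), LGALS3BP (0.879), CD163 (0.877) and ACKR1 (0.868), of which CD163 is a macrophage scavenger receptor and ACKR1 the chemokine receptor of venules. For TEK, looked up after its values were seen, they were NID1 (r = 0.892), FAP (0.889), MEST (0.885), AEBP1 (0.874) and CAVIN2 (0.863). Of these, FAP and AEBP1 are known from fibroblasts and matrix, but NID1, MEST and CAVIN2 were assigned to no cell type here. These genes therefore name no source of TEK. Against the mean level of whole lists, TEK had r = 0.664 with adipocyte markers and 0.661 with BMP and TGF-beta genes. It had r = 0.635 with other endothelial genes and 0.592 with fibroblast markers. Of the 8 fibroblast markers 0 were above 0 in bitten against naive skin (median -0.52), with summed levels of 1830 to 8862 TPM in bitten and 2442 to 12696 TPM in naive libraries. By group, 4 of 8 were above 0 in saliva immune skin (median -0.03), 0 in first exposure (median -0.60), 1 in 3 bites (median -0.72) and 3 in 2 bites skin (median -0.18), each against naive skin. Over all genes tested, 64.6% were above 0 in bitten skin, 68.1% in saliva immune, 64.5% in first exposure, 60.5% in 3 bites and 42.2% in 2 bites skin. The part of fibroblasts or adipocytes in the TEK values was not tested.

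Ratios within a library set the members against each other without the library's total. TEK over TIE1 was 0.822, 0.842 and 0.896 in saliva immune, 1.23, 1.15 and 1.16 in first exposure and 1.44 and 2.03 in naive skin of CK1. It was 0.859 and 0.551 in 3 bites, 0.746 and 1.06 in 2 bites and 2.49 in naive skin of EF19-5. All 10 bitten libraries thus lay below all 3 naive libraries in both experiments. For TEK over VWF the range was 0.169 to 0.461 in bitten and 0.587 to 0.934 in naive libraries. The ratio of TEK to PECAM1 was 0.0775 to 0.167 in bitten and 0.186 to 0.241 in naive libraries, and the ratio to CDH5 was 0.350 to 0.683 in bitten and 0.736 to 1.31 in naive libraries. Of all 45 pairs of members, compared as differences in log2(TPM + 1), 6 had no overlap between bitten and naive libraries, and 5 of these were TEK with PECAM1, CDH5, VWF, TIE1 or ENG. Among all genes tested, the ratio to the same partner was lower without overlap in 3.05% for TIE1, 3.09% for VWF, 1.66% for PECAM1, 1.38% for CDH5 and 1.51% for ENG. These ratios were looked at after the TEK values were seen and carry no test.

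A further fit took the mean level of 16 other endothelial genes as covariate. Most of these genes were themselves higher in bitten skin. A member near 0 in the main fit that varies with them therefore falls below 0 here, so this fit is no separate support for the ratios. There TEK was at -0.75 (SE 0.230, unadjusted p = 0.00687, limma adjusted p = 0.624) and VCAM1 at -0.89 (SE 0.258, unadjusted p = 0.00471, adjusted p = 0.588) in bitten against naive skin, while the other 8 members lay between -0.17 and 0.21. Of all genes 3.08% were lower at an unadjusted p under 0.05 in this fit, and 0.00668% passed after adjustment. VCAM1 had r = 0.622 with the mean of these 16 genes, 0.779 with that of the fibroblast markers and 0.779 with that of lymphatic endothelial genes. The part of these cell types in the VCAM1 values was not tested. The ratio of CLDN5 to PECAM1 was 0.324 to 0.534 in CK1 and 0.187 to 0.343 in EF19-5, ranges that overlap in part.

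**Figure D4:**
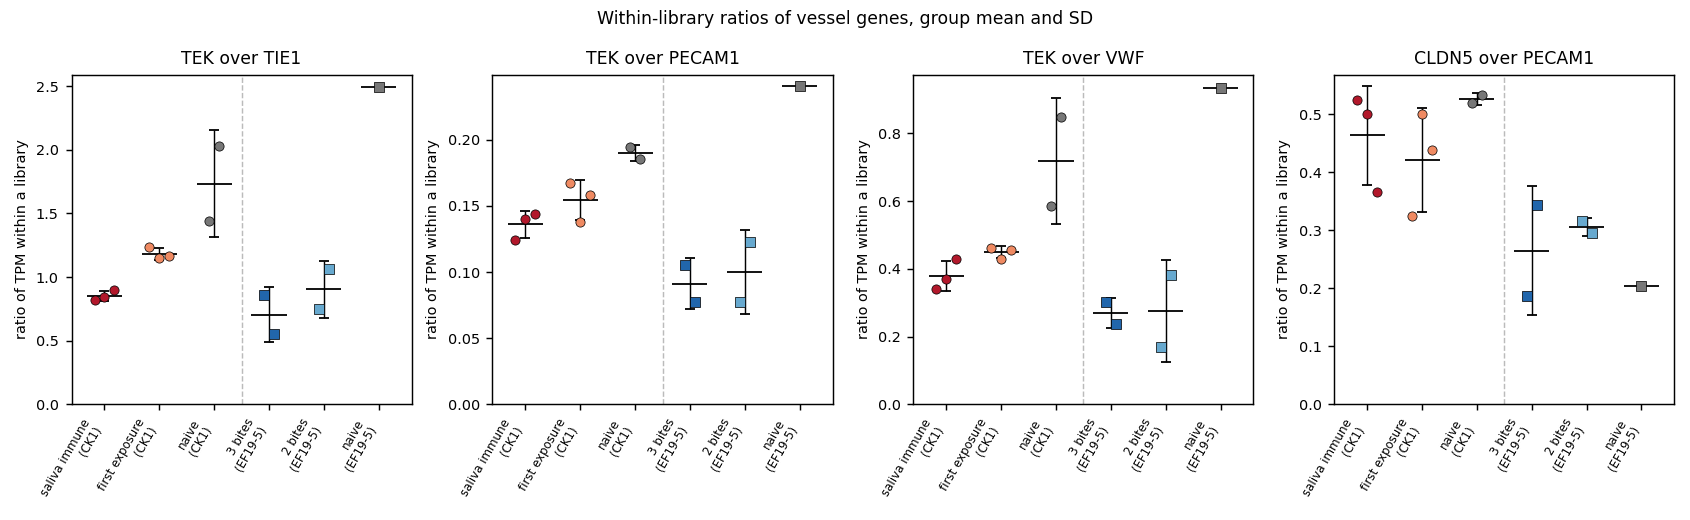
Ratios of TPM within each library (points), with the group mean (horizontal line) and SD (vertical bar), CK1 left and EF19-5 right of the dashed line; the vertical axes start at 0. TEK over TIE1, PECAM1 and VWF is lower in each bitten library than in each naive library, with TEK over TIE1 at 0.551 to 1.23 in bitten and 1.44 to 2.49 in naive skin. On the log2(TPM + 1) scale the ratio to TIE1, PECAM1 and VWF was lower without overlap in 3.05%, 1.66% and 3.09% of all genes tested. CLDN5 over PECAM1 runs from 0.324 to 0.534 in CK1 and from 0.187 to 0.343 in EF19-5.

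Among the ligands and partners of these receptors, ANGPT1, the angiopoietin that activates TEK, had the smallest p in bitten against naive skin. It had 5.92, 5.66 and 4.11 TPM in saliva immune, 6.51, 5.00 and 6.09 TPM in first exposure and 2.46 and 1.62 TPM in naive skin of CK1. In EF19-5 it had 4.45 and 2.02 TPM in 3 bites, 5.19 and 3.46 TPM in 2 bites and 1.67 TPM in naive skin. ANGPT1 had no overlap between bitten and naive skin in either experiment, a difference of 1.00 (SE 0.206, unadjusted p = 0.000296) that did not pass adjustment (limma adjusted p = 0.0939). It was picked by its p from these same values. In CK1 10.6% and in EF19-5, with its single naive library, 16.9% of all genes were higher without overlap. DLL1 and HEY1 of the same list also had no overlap in either experiment, both being higher in bitten skin of CK1. ANGPT2, which can oppose ANGPT1 on TEK, was at 0.38 (95% interval -0.03 to 0.79), with 1.32 to 3.34 TPM in bitten and 1.14 to 2.06 TPM in naive skin. The phosphatase PTPRB, which acts on TEK, was at 0.34 (95% interval -0.31 to 0.99).

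**Figure D5:**
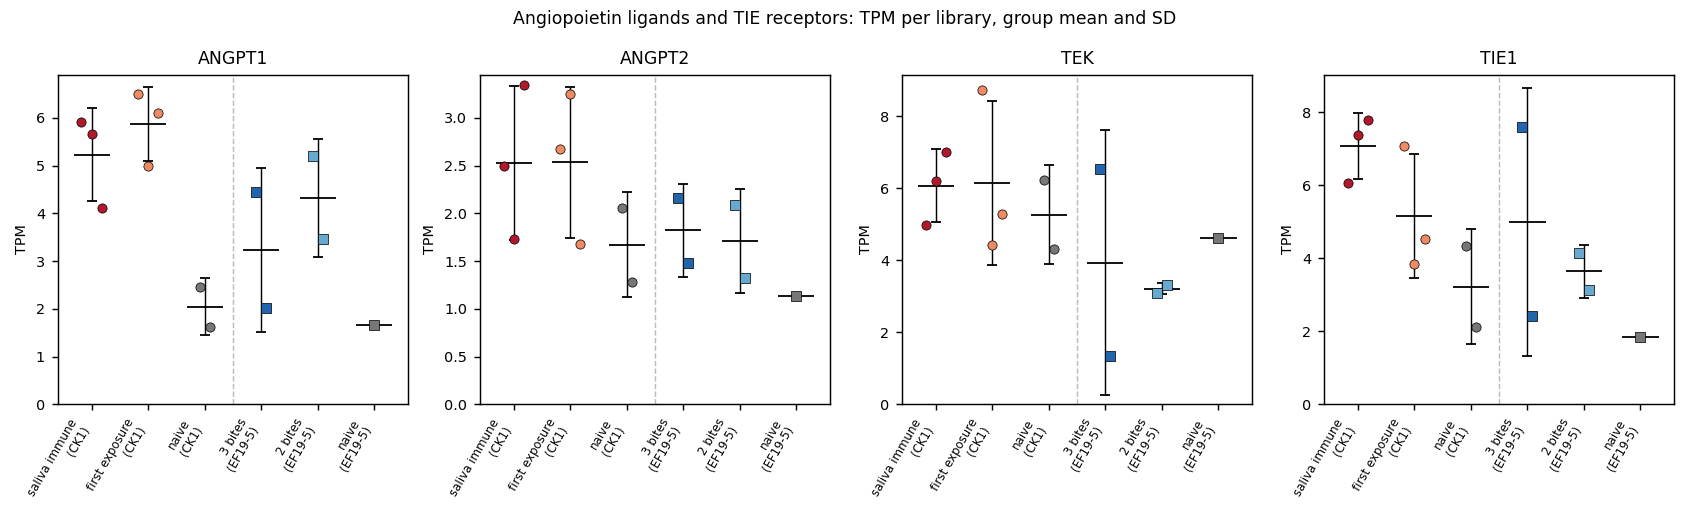
TPM of the angiopoietins ANGPT1 and ANGPT2 and of the receptors TEK and TIE1 in each library (points), with the group mean (horizontal line) and SD (vertical bar), CK1 left and EF19-5 right of the dashed line; the vertical axes start at 0. ANGPT1 is above the naive libraries of its experiment in each bitten library, from 2.02 to 6.51 TPM in bitten and 1.62 to 2.46 TPM in naive skin, while TEK overlaps. In CK1 10.6% and in EF19-5 16.9% of all genes were higher without overlap.

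In the list of VEGF, angiopoietin and notch genes, 18 of 21 tested were above 0 in bitten skin with a median of 0.28. Limma called 0 of them (4 at an unadjusted p under 0.05). Over all genes tested, 64.6% were above 0 and 15.8% had an unadjusted p under 0.05 by limma, shares that apply to both lists of this paragraph. EPAS1, a hypoxia-regulated transcription factor, was at 0.83 and the notch ligand DLL1 at 0.73. The KDR relative FLT1 was at 0.38 and the co-receptor NRP1 at 0.46, neither past an unadjusted p of 0.05. Around ENG, 9 of 18 BMP and TGF-beta genes were above 0, with a median of -0.001, and ACVRL1, the type I receptor that works with ENG, was at 0.54 (unadjusted p = 0.0292, limma adjusted p = 0.271) and the only 1 of the 18 at an unadjusted p under 0.05. The ligand TGFB1 was at 0.33 and the receptor TGFBR1 at 0.22.

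Of 22 tested partners of CLDN5 and CDH5 in the junctions, 19 were above 0 with a median of 0.26, 3 had an unadjusted p under 0.05 and 0 were called by limma. Over all genes tested, 64.6% were above 0 and 15.8% had an unadjusted p under 0.05 by limma. GJA5, a connexin of arterial endothelium, was at 0.61, F11R (JAM-A), which epithelium also carries, at 0.45 and CLDN10 at 0.55. The scaffold TJP1 (ZO-1) was at -0.01 and CTNNB1 (beta-catenin), which binds CDH5, at -0.01. These junction partners are also abundant in epidermis, as CLDN1 with 111 to 352 TPM over all libraries.

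Of 19 tested ligands and counter-receptors for leukocyte adhesion, 19 were above 0 with a median of 0.51, 10 had an unadjusted p under 0.05 and 0 were called by limma. Beside these counts, 64.6% of all genes tested were above 0 and 15.8% had an unadjusted p under 0.05 by limma. ACKR1 was at 0.94 (unadjusted p = 0.00231), IL4R, the receptor for interleukin 4 and interleukin 13, at 0.51 and ITGB2, the beta chain of leukocyte integrins, at 0.89. SELP (P-selectin), stored in endothelium and platelets with VWF, was at 0.75 (unadjusted p = 0.0163, limma adjusted p = 0.225). SELE was at 0.38 with an unadjusted p of 0.423, and the gap between the 2 selectins was not tested. Leukocyte markers stood beside these values: 12 of 12 tested were above 0 (median 1.03), and their summed level was 402 to 2410 TPM in bitten and 146 to 330 TPM in naive libraries. Their part in the PECAM1, ITGB2 and CLDN5 values was not tested.

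Of the haemostasis genes around VWF, 9 of 10 were above 0 (median 0.39), 2 had an unadjusted p under 0.05 and 0 were called by limma. For this list and the next, the shares over all genes tested were 64.6% above 0 and 15.8% at an unadjusted p under 0.05 by limma. ITGA2B, the platelet integrin chain, was at 0.69. Platelet markers in the table (5 of 9 listed) summed to 8.53 to 23.8 TPM in bitten and 4.07 to 10.8 TPM in naive libraries. Of the shear and barrier genes, 9 of 12 were above 0 (median 0.17), 1 of them at an unadjusted p under 0.05 and 0 called by limma, with CAV1, the coat protein of caveolae, at 0.75. SPNS2, which exports sphingosine 1-phosphate from endothelium, was at 0.38 and the kinase SRC at 0.35.

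Other endothelial genes outside the 10 were set beside them. They share libraries, tissue composition and scaling with the members, so they are no independent check. Of 16 tested, 15 were above 0 in bitten skin, with a median of 0.52, beside 0.60 for the 10 members. By limma 8 had an unadjusted p under 0.05 and 0 were called. For each list of this paragraph, the shares over all genes were 64.6% above 0 and 15.8% at an unadjusted p under 0.05. Their summed level in CK1 was 277 to 414 TPM in bitten and 198 to 289 TPM in naive libraries. In EF19-5 the 16 genes summed to 302 to 409 TPM in bitten and 331 TPM in naive skin. CD34 and PALMD alone had 137 and 129 TPM in that naive library, so the sum mostly follows these genes. The mean log2(TPM + 1) of the 16 genes was 3.53 and 2.62 in 3 bites, 3.22 and 2.90 in 2 bites and 2.59 in naive skin of EF19-5. The transcription factors SOX7, SOX18 and TAL1 were at 0.92, 0.91 and 1.05. Lymphatic endothelial genes were at a median of 0.15 (7 of 8 above 0, 0 at an unadjusted p under 0.05 and 0 called by limma). STAB1, a scavenger receptor that macrophages also carry, was at 0.89, FOXC2, a transcription factor of lymphatic valves, at 0.44 and PROX1, which defines lymphatic identity, at 0.20. Pericyte and smooth muscle genes were mixed, 7 of 12 above 0 with a median of 0.11 and 0 called by limma, the pericyte marker RGS5 being at 0.80, MCAM, shared by pericytes and endothelium, at 1.12 and LMOD1, of smooth muscle, at -1.04.

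Skeletal muscle transcripts moved with the groups beside all these values. Their 31 genes made up 2.52% to 10.9% of transcripts in bitten and 10.1% and 17.6% in naive libraries of CK1, and 0.668% to 1.58% in bitten and 2.50% in the naive library of EF19-5. The highest share, 17.6%, was in naive replicate 2, the library with the lowest level of most members in CK1. When TPM were rescaled without muscle genes, VWF was at 0.90, TEK at -0.10 and CLDN5 at 0.49, and 4 members had an unadjusted p under 0.05. Adipocyte markers were at a median of 0.92 in bitten against naive skin and keratinocyte markers at 0.50. The adipocyte median was 1.48 in saliva immune, 1.57 in first exposure, -0.20 in 3 bites and -0.16 in 2 bites skin, each against naive skin. The part of these cell types in the members' values was not tested.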

How the data were processed

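RNA from 13 guinea pig skin libraries was isolated with a Qiagen RNeasy kit, per the labels' protocols. The values are TPM as the authors deposited them. Per the submitters' processing notes the tools were StringTie, Trimmomatic and DESeq, with neither version nor order; no aligner, build or annotation release is named there. TPM keep no count, so the depth of each library is unknown and no counting interval is given; 13270 to 14391 genes per library reached 1 TPM. Groups came from the labels and the experiment from the title prefix. Differences were tested on log2(TPM + 1), a scale that understates changes of low genes, with limma 3.58.1 in R 4.3.3 (empirical Bayes with trend, two-sided, Benjamini-Hochberg over 14979 genes, threshold 0.05). Bitten against naive skin used a bitten and an experiment term, and the other comparisons the 6 cells of group and experiment with a shared spread. The fit was also run on simulated data with noise independent between genes. The members vary together, so that run is no evidence for their values. A log2 difference near 0.10 was the median of all genes in bitten against naive skin.

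The 10 genes and the gene lists were chosen with earlier results of these data known. Partner genes named are the 3 with the smallest p in each vessel list, as none of these lists held a called gene; FLT1, NRP1, PTPRB, TJP1, CTNNB1 and CLDN1, and the genes most like TEK, were named after their values were seen. Alternatives changed the pseudocount (0.1 or 5), the filter, the scaling, the experiment term, covariates, and the libraries used. Coordinates and sequences were not used here. Figures were drawn with matplotlib 3.10.9.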

Additional observations from a re-analysis of the deposited data

Results flagged for a closer look

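SELE in 2 bites replicate 1 had 6.16 TPM, far from the other bitten libraries: its gap to the next was 0.719 of the whole range of the 10 bitten libraries, past the Dixon critical value of 0.466. In all, 30 groups of values (10 genes in 3 sets of libraries) were checked this way, of which chance flags about 5%, and this was the only 1 that passed. VCAM1 was also highest in that library, at 6.56 TPM, and so was ITGB2, a leukocyte integrin chain, at 18.4 TPM.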

How the results depend on the processing

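No paired analysis was possible because the labels give replicates no numbers that recur across groups. None of the 10 genes was called in any of 1700 further fits of a member (smallest adjusted p = 0.113, VWF and ENG without 3 bites replicate 2), so 0 members were called in each comparison under each of the alternatives run; 103 of these fits moved a difference by more than its standard error, and the cause was not tested. Over all genes, the number called in bitten against naive skin was 6, and was 12 with a pseudocount of 0.1, 2 with 5, 3 with TPM rescaled without muscle, 3 without the experiment term, 2 with muscle and 1 with endothelial level as covariate, and 1 to 31 with a library left out. For first exposure it was 5, and 3 without the filter, 1 without the experiment term, 1 with the endothelial covariate and 1 to 19 with a library left out. For saliva immune it was 1, and 5 and 4 with pseudocounts of 0.1 and 5, 2 without the filter, 3 with median-of-ratios scaling, 6 without muscle, 2 without the experiment term, 7 with the muscle covariate and 1 to 6 with a library left out. In 2 bites it was 2, and 37 without the filter, 254 without the experiment term, 1 with the muscle covariate, 1 with the endothelial covariate, 1 on EF19-5 alone and 1 to 3 with a library left out. In 3 bites it was 1, and 2 with a pseudocount of 5, 30 without the filter, 2 without the experiment term and 1 to 3 with a library left out. Between 3 and 2 bites it was 0 (1615 genes at an unadjusted p under 0.05 by limma), and 1 with a pseudocount of 5, 4 without the filter, 692 with the muscle covariate and 0 to 4 with a library left out. Between saliva immune and first exposure it was 0 (351 unadjusted), and 1 on CK1 alone and 0 to 1 with a library left out. For the difference between experiments it was 0 (421 unadjusted), and 24 without the filter and 0 to 1 with a library left out. The causes of these moves were not tested. Median-of-ratios scaling took the median difference of all genes from 0.10 to -0.01 in bitten skin. TEK in bitten against naive skin lay between -0.75 and 0.17 over the alternatives.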
